A study of Mus musculus with 28 samples.

Results

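A list of 45 mouse interferon response genes was looked up by symbol in a deposited expression table of 17295 genes, and 42 of them had a row. Ifitm1, Oas3 and Mx2 had none and were not analysed here. Of the 42 genes, 38 had a mean value of at least 10 over all 28 libraries and entered the tests. Irf7, Oasl1, Mx1 and Isg20 lay below that mean and are given as values only.

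The 28 mouse libraries form 14 groups, each of 2. Those called miNSC, in 10 groups, were induced neural stem cells made from fibroblasts with doxycycline-inducible lentiviruses and the transactivator M2rtTA, then grown from picked colonies in medium with bFGF and EGF after doxycycline had ended. Each cocktail held eSox17FNV, an engineered form of the transcription factor Sox17, written F here, with further factors that the labels give only as the letters B, K and M. The question was how the profiles of such cells differ with the age and origin of the fibroblast and with the cocktail. BKF and KF lines were made from embryonic fibroblasts (MEF) labelled ICR. Their counterparts labelled Sox2-GFP were used for BKF, KF and KMF lines. From Sox2-GFP tail tips at 1.0 year came lines with BKF, with KMF and with 4F, meaning all of B, K, M and F, the last of them sampled at passages 8 and 18. A further 4F line was derived from Sox2-GFP ears at 1.0 year. The unreprogrammed samples were Sox2-GFP tail-tip fibroblasts of 1.0 and 2.5 years, Sox2-GFP skin fibroblasts of 2.5 years, and Sox2-GFP neural stem cells (NSC) of 2.5 years at passages 2 and 5. The fibroblasts were thus all Sox2-GFP and postnatal, and neither ICR nor embryonic fibroblasts stood beside the lines made from them.

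Interferons signal through cell-surface receptors and Janus kinases to transcription factors, among them Stat2 and Irf9, which enter the nucleus and switch on interferon-stimulated genes. Many products of these genes detect viral RNA, block its translation or degrade it, and several of them (Stat2, Irf7, Irf9, the RNA sensors) raise the sensitivity of the pathway itself, so that a low tonic signal keeps a basal level of the whole set. Fibroblasts are known for a ready interferon response, whereas many stem cells are known for a blunted one. In bulk samples such as these, fewer cells that express a gene and less of its RNA per cell cannot be told apart.

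The DNA element through which Stat2 and Irf9 act is the interferon-stimulated response element, and interferon gamma acts largely through the gamma-activated site. RefSeq promoter windows on GRCm38.p6, which run from 250 bases before to 50 bases after a transcript start, were found for 36 of the 45 genes. The core GAAANNGAAA of the first element, sought on both strands, lay in at least 1 window of 18 of these 36 genes (50%), against 3.99% of all 27025 genes with windows. The core TTCNNNGAA of the second, whose letters are the same on both strands, lay in 10 of the 36 (27.8%) against 9.55%. Matches to the first core can overlap each other, as in Isg15 and Bst2. The stretches below belong to genes whose values carry the results, and show the core in capitals on the gene's strand from 5′ to 3′, with up to 15 bases either side. Where the capitals start with TTTC, the core is on the opposite strand.
Ifit1 (chr19:34640789-34640828, plus strand): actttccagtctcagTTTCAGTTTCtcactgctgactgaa
Ifit3 (chr19:34583392-34583431, plus strand): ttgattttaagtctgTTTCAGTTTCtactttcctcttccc
Isg15 (chr4:156200860-156200899, minus strand): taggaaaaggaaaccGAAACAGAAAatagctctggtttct
Bst2 (chr8:71537572-71537611, minus strand): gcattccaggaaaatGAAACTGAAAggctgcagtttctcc
Gbp2 (chr3:142620589-142620628, plus strand): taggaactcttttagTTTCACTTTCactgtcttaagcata
Trim5 (chr7:104288131-104288170, minus strand): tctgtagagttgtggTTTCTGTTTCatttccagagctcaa
Rsad2 (chr12:26456548-26456587, minus strand): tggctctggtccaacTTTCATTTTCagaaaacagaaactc
Stat2 (chr10:128270261-128270300, plus strand): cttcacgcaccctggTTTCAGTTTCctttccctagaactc
Irf1, second core (chr11:53769909-53769947, plus strand): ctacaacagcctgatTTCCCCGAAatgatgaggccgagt
The matched letters in Ifit1 start 85 bases before the transcript start, those in Isg15 66 bases before it and those in Bst2 124 bases before it. In Irf1 they start 90 bases before it. A match describes these letters and is no evidence of binding.

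The values are whole-number normalised scores whose totals were nearly the same in every library, from 15563679 to 15571626, so sequencing depth is unknown and no limit of detection can be given. None of 15 housekeeping genes was listed at 0 in any library. The 9 neural stem cell markers were all called higher and the 8 fibroblast markers all lower in miNSC than in fibroblasts. Fibroblast markers summed to 251 to 3012 in miNSC libraries and to 140947 to 209471 in fibroblasts. Macrophage and leukocyte markers summed to 574 to 4810 in fibroblasts, 13 to 215 in miNSC and 11 to 24 in NSC. Their part in the differences below was not tested.

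Across the 42 genes the fibroblast groups stood apart. Each gene's log2(value + 1) was centred on its mean over all libraries and the median over the genes was taken per library. The group mean of that median was 2.40 in 2.5-year tail-tip fibroblasts, 1.90 in skin fibroblasts and 1.65 in 1.0-year tail-tip fibroblasts. It was 0.23 and -0.05 in the ICR KF and BKF lines, -0.10 in NSC, and between -0.74 and -0.22 in the 8 Sox2-GFP miNSC groups. The same median over all tested genes lay between -0.10 and -0.07 in fibroblast libraries and between -0.02 and 0.07 in miNSC libraries. Each fibroblast library had 0 to 2 of the 42 genes at 0, each NSC library 7 or 9, and each miNSC library 4 to 14, with a median of 8.

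**Figure D1:**
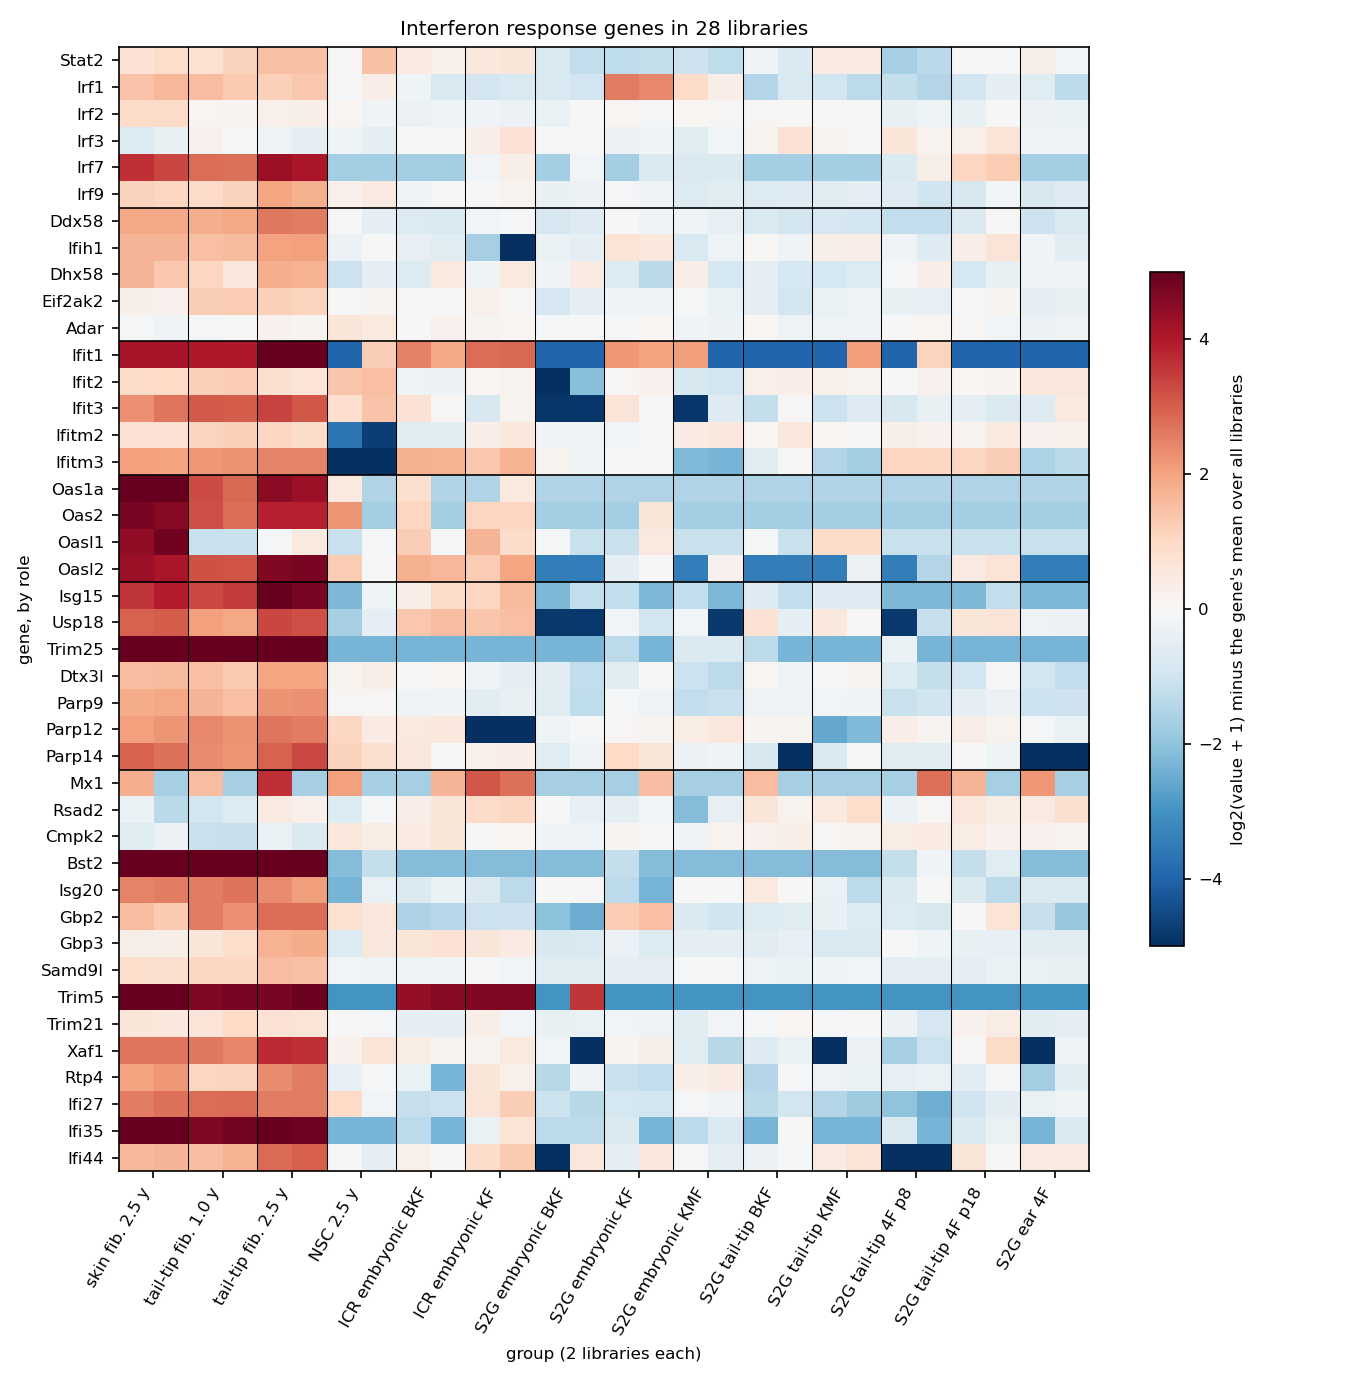
Each cell is the log2(value + 1) of 1 gene in 1 library minus that gene's mean over the 28 libraries, with genes in rows by role and libraries in columns by group; colours stop at 5 in either direction. The 6 fibroblast columns at the left are red in nearly every row. Cmpk2 is pale blue there, below its mean, and Rsad2 is pale with values on both sides of its mean. The miNSC columns hold single dark blue cells where a gene was listed at 0.

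Some genes had no values between 0 and 20. Trim5 was at 0 in 17 libraries and at 94 or more in all others, Ifit1 was at 0 in 12 with a lowest other value of 32, and Ifi44 was at 0 in 3 with a lowest other value of 32. Including Ifit2, Ifih1 and Parp14, 6 of the 42 genes (14.3%) had a 0 and no other value under 20, against 8.9% of all 17295 genes. Such a 0 may be a failed estimate rather than a lack of RNA, so a fold change of these genes is uncertain. Counting of paralogs and of strand is not given in the sources used here. Values of the Ifit, Ifitm, Oas and Gbp genes, which have close relatives, and of Dtx3l and Parp9, which overlap by 681 bases on opposite strands, are therefore uncertain.

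Interferon response genes were lower in miNSC than in fibroblasts in every role class. Among genes with a miNSC mean of at least 10, the RNA sensor gene Ddx58 had a log2 fold change of -2.75, Ifi27 one of -3.54 and the signalling gene Irf9 one of -1.79. Of the 38 tested genes, limma called 34 lower and 3 higher, against a background of 33.7% of all tested genes lower and 42.8% higher. The fall was at least 2-fold for 31 of the 34. The median log2 fold change was -2.47 over the 38 genes and 0.10 over all 16275 tested genes. The mean of 7 of the 38 (Isg15, Bst2, Oas1a, Oas2, Ifi35, Trim25 and Dhx58) was under 10 in miNSC, so these passed the filter only through fibroblasts and had to differ. Over the other 31, a choice made after seeing the data, 27 were lower and 3 higher with a median of -2.26, against 30.3% lower and 45.2% higher among the 15409 tested genes with a miNSC mean of at least 10. In 29 of the 38 genes no miNSC library overlapped a fibroblast library, against 31.9% of all tested genes. With each group mean taken as 1 sample, some of the calls were lost, among them that of Ifi44 (-2.66, adjusted p = 0.0633). The share of all tested genes called in that fit was not counted, so no count of the 38 is given for it.

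Among signalling genes, Irf9, the DNA-binding partner of Stat2, had values of 268 to 536 in fibroblasts (median 309) and 68 to 154 in miNSC (median 94). The ranges did not overlap, and it fell by 1.79 on the log2 scale (SE 0.08, adjusted p = 1.77e-12). Stat2, the activating subunit of the same complex, ran from 340 to 562 (median 416) in fibroblasts and from 64 to 308 (median 182.5) in miNSC, again without overlap, a log2 fold change of -1.48 ± 0.15 (adjusted p = 8.20e-08). Irf1, an activator induced mainly by interferon gamma, was at 121 to 164 in fibroblasts, while miNSC ranged from 18 to 318 around a median of 30. Both high miNSC values belonged to the Sox2-GFP embryonic KF line, so the ranges overlapped although the contrast was called (log2 fold change -1.85 ± 0.14, adjusted p = 2.61e-09). Irf2, which competes with Irf1 for the same sites, fell by 0.59 (SE 0.06, adjusted p = 5.11e-08). Irf3, the factor that RNA sensing activates first, was called higher at 0.36 ± 0.10 (adjusted p = 0.00308), but against 1.0-year tail-tip fibroblasts alone its difference was -0.02 (adjusted p = 0.928). Irf7, the amplifier of interferon production, was not tested and stood at 21 to 62 in fibroblasts and 0 to 7 in miNSC.

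The cytosolic RNA sensors were lower as well. Ddx58, which encodes RIG-I, had 1042 to 1855 in fibroblasts (median 1140) and 124 to 307 in miNSC (median 178), a log2 fold change of -2.75 ± 0.08 (adjusted p = 1.23e-14). Ifih1, which encodes MDA5, stood at 341 to 504 in fibroblasts and 0 to 196 in miNSC. The single 0 was ICR KF replicate 2, whose partner had 37. Dhx58, the regulator LGP2, and Eif2ak2, the kinase PKR that stops translation, fell too, with log2 fold changes of -1.71 and -1.15. Adar, the enzyme that edits double-stranded RNA and so hides it from MDA5, was the 1 tested gene of the 38 not called, with medians of 620.5 in fibroblasts and 620 in miNSC (log2 fold change -0.05 ± 0.05, adjusted p = 0.352).

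The IFIT genes, whose products bind foreign RNA ends, and the IFITM genes, whose membrane proteins hinder virus entry, all fell. Ifit1 had 244 to 570 in fibroblasts (median 268). It was listed at 0 in 11 of 20 miNSC libraries and reached 112 in the others (log2 fold change -5.64 ± 0.94, adjusted p = 3.85e-05). Ifit3 went from 142 to 302 down to 0 to 47 without overlap (log2 fold change -3.91 ± 0.41, adjusted p = 1.66e-07). Ifit2 had 278 to 411 in fibroblasts and 38 to 256 in miNSC, apart from a 0 in replicate 1 of the Sox2-GFP embryonic BKF line. Its call (log2 fold change -1.43 ± 0.44, adjusted p = 0.00788) was lost with group means as samples, at adjusted p = 0.194. Ifitm3 kept a value of 170 to 2899 in miNSC against 3476 to 4756 in fibroblasts, a fall of 2.26 (SE 0.17). Ifitm2 had 808 to 1822 in miNSC against 2033 to 2816, the smallest log2 fold change of the 5 at -0.83 ± 0.10.

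The oligoadenylate synthetase genes, whose products make the activator of RNase L, were close to 0 in miNSC. Oas1a had 20 to 190 in fibroblasts (median 59) and was listed at 0 in 18 of 20 miNSC libraries, with 4 as the highest value (log2 fold change -5.76 ± 0.33, adjusted p = 5.33e-11). Oas2 was listed at 0 in 16 of 20, with 22 to 88 in fibroblasts. Oasl2, an OAS-like gene, had 96 to 300 in fibroblasts and 0 to 42 in miNSC (log2 fold change -5.30 ± 0.46, adjusted p = 1.77e-08). None of the 3 overlapped. Oasl1, not tested, reached 45 and 60 in skin fibroblasts and 0 to 6 elsewhere.

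All 7 genes of the ISG15 system and the associated ADP-ribosyltransferases fell. Trim25, which ligates ISG15 and ubiquitin and aids RIG-I, had 622 to 1019 in fibroblasts (median 771) and 0 to 3 in miNSC, with 15 of 20 libraries at 0 (log2 fold change -9.26 ± 0.22, adjusted p = 5.50e-16). Isg15, the ubiquitin-like modifier itself, had 46 to 241 in fibroblasts and 0 to 13 in miNSC (log2 fold change -5.24 ± 0.28, adjusted p = 2.20e-11). Usp18, which removes ISG15 and restrains the receptor, had 108 to 288 against 0 to 82 (log2 fold change -3.48 ± 0.53, adjusted p = 1.44e-05). Parp14 had 233 to 494 in fibroblasts and 28 to 99 in miNSC, apart from 0 in both ear libraries and in replicate 2 of the tail-tip BKF line. The log2 fold changes of Parp12, Parp14 and Parp9 were -3.14, -3.68 and -2.51, and that of Dtx3l, the partner of Parp9, was -2.17. In none of the 7 did miNSC and fibroblast libraries overlap.

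Of the 13 other antiviral effectors tested, 11 fell and 2 rose. Bst2, which tethers budding virions, had 256 to 725 in fibroblasts (median 633.5) and 0 to 3 in miNSC (log2 fold change -8.61 ± 0.18). Ifi35 had 124 to 199 against 0 to 7 (log2 fold change -6.22 ± 0.34, adjusted p = 3.51e-11). Trim5, a capsid-binding restriction factor, had 195 to 288 in fibroblasts, 166 to 201 in the 4 ICR libraries, 94 in replicate 2 of the Sox2-GFP embryonic BKF line and 0 in the other 15 miNSC libraries (log2 fold change -6.02 ± 0.55, adjusted p = 3.36e-08). The miNSC range thus overlapped the fibroblast range through the ICR lines alone. Ifi44 had 133 to 366 in fibroblasts and 32 to 114 in miNSC, apart from 0 in both passage 8 libraries and in replicate 1 of the Sox2-GFP embryonic BKF line. Xaf1, Ifi27, the GTPase genes Gbp2 and Gbp3, Ifi44, Rtp4, Samd9l and Trim21 fell, with log2 fold changes of -3.90, -3.54, -2.96, -1.23, -2.66, -2.43, -1.44 and -0.90 in that order. Isg20, an exonuclease gene that was not tested, had 20 to 32 in fibroblasts and 0 to 6 in miNSC, and the GTPase gene Mx1 reached no more than 38 in any library and was at 0 in 16.

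Cmpk2 and Rsad2 moved the other way. They are head-to-head neighbours on chromosome 12 (26442746 to 26456452 and 26469204 to 26479837), 12752 bases apart, and their products cooperate: the kinase CMPK2 supplies the nucleotide that viperin, from Rsad2, turns into a chain terminator. Cmpk2 had 44 to 80 in fibroblasts and 86 to 151 in miNSC without overlap, and rose by 0.87 ± 0.06 (adjusted p = 1.91e-09). Rsad2 had 24 to 86 in fibroblasts and 13 to 128 in miNSC, with overlap, and a log2 fold change of 0.60 ± 0.20 (adjusted p = 0.0128). Without skin fibroblast replicate 2 the Rsad2 call was lost (0.43, adjusted p = 0.0792), and it was also lost with group means as samples.

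**Figure D2:**
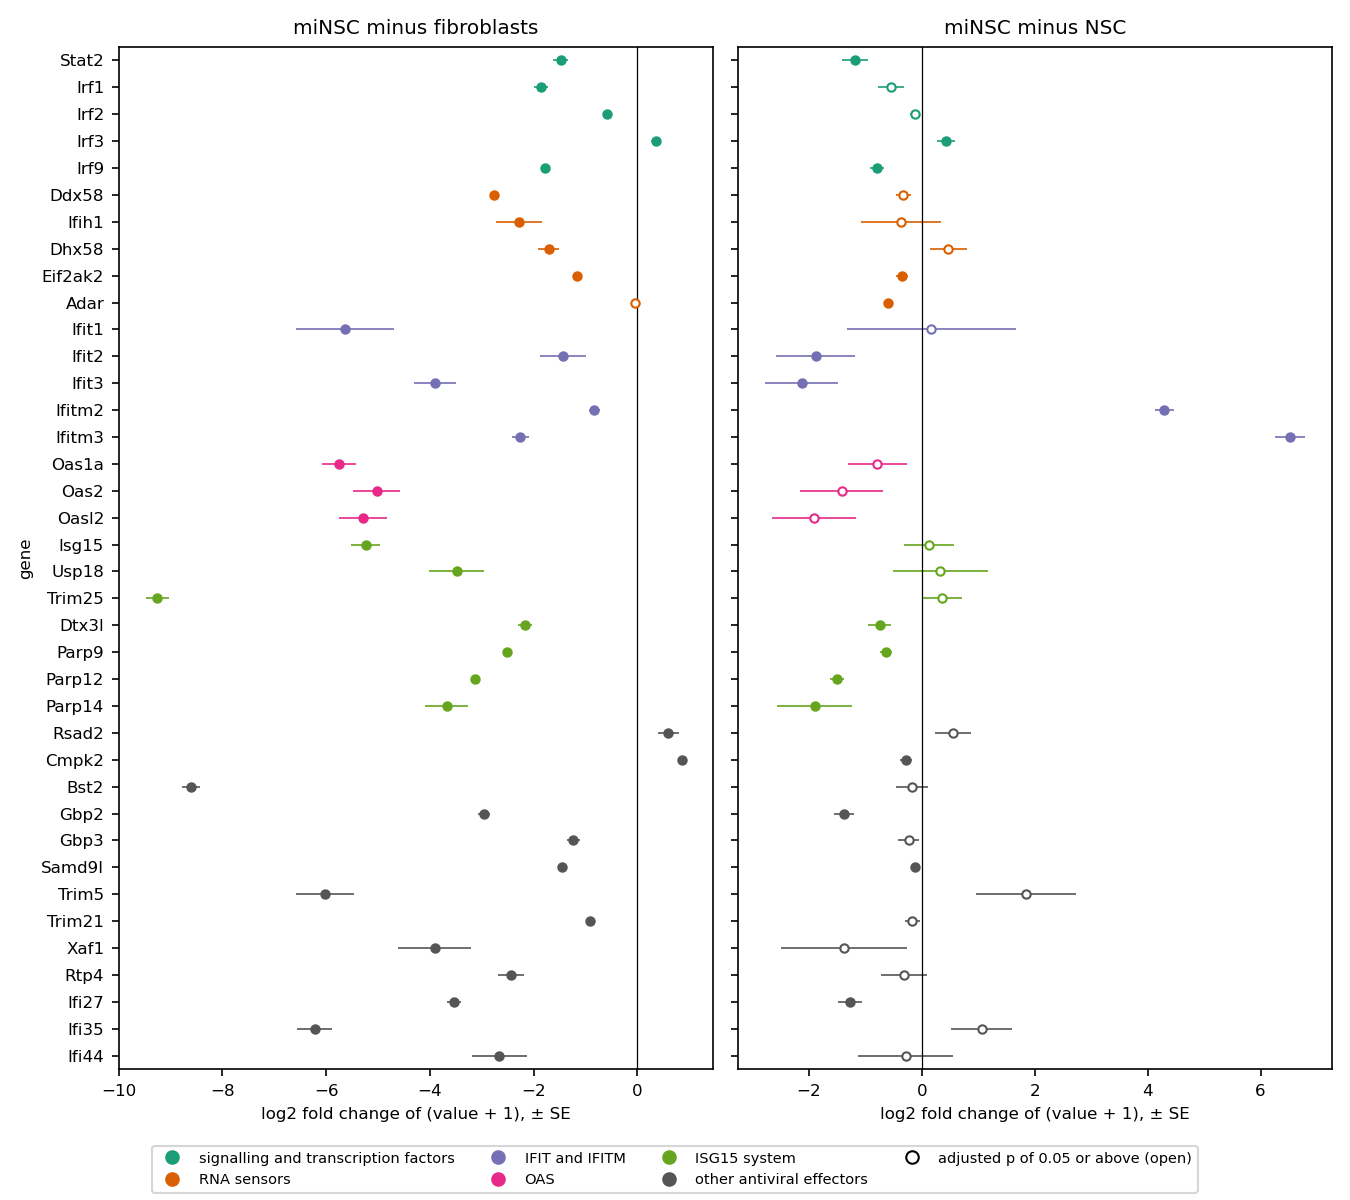
Log2 fold changes with standard errors of the 38 tested genes, coloured by role, for miNSC minus fibroblasts (left) and miNSC minus NSC (right), where filled points passed adjusted p under 0.05. On the left nearly all points lie below 0, to -9.26 for Trim25, with Cmpk2, Rsad2 and Irf3 above it, and on the right Ifitm3 (6.52) and Ifitm2 (4.30) stand far to the right of the others.

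Further genes of the pathway are set against the same background of 33.7% lower and 42.8% higher. Of 10 receptor and kinase genes tested, 6 were called lower and 2 higher. Among them Ifnar2, a subunit of the type I receptor, had 528 to 624 in fibroblasts and 138 to 364 in miNSC, and Jak1, the kinase both receptor types use, had 3666 to 5162 against 700 to 1630. Of 9 sensing adaptors, 8 were called lower. One was Zbp1, a sensor of Z-form nucleic acid, with 32 to 94 in fibroblasts and 0 in 19 of 20 miNSC libraries. Of 7 negative regulators, 6 were lower and 1 higher; Socs1, which inhibits Janus kinases, had 55 to 598 in fibroblasts and 0 to 10 in miNSC. Of 29 other interferon-induced genes, 22 were lower and 2 higher, among them Ifi204, a DNA sensor of the p200 family, at 2130 to 2640 against 1 or 2. Sp100, a nuclear body protein gene, had 84 to 532 in fibroblasts and was listed at 0 in all 20 miNSC libraries.

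Genes with and without the response element core are given side by side for this contrast, with no test. The 17 tested genes with a core in a promoter window had a median log2 fold change of -2.28, and 16 of them were below 0. The 14 tested genes with windows but no core had a median of -2.01, and 12 were below 0. Rsad2 had the core and was higher in miNSC.

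The lower level was also seen where donor tissue, age and strain were matched. In the 4 tail-tip miNSC groups (8 libraries) against 1.0-year tail-tip fibroblasts (2 libraries), 32 of 38 genes were called lower and 2 higher, against 29.4% and 36.7% of all tested genes. The median was -2.31 over the 38 and 0.10 over all tested. In these lines 9 of the 38 had a mean under 10 (the 7 named above, Oasl2 and Trim5) and passed the filter through other groups. Over the other 29, 23 were lower and 2 higher, against 26.3% and 39.1% of the 15187 tested genes with such a mean. Trim25 had 670 and 622 in the fibroblasts and 0 to 3 in the lines (log2 fold change -8.96 ± 0.38, adjusted p = 2.48e-12), and Bst2 had 256 and 264 against 0 to 3 (-7.33 ± 0.30, adjusted p = 1.73e-12). Trim5 had 195 and 212 and was listed at 0 in all 8 tail-tip miNSC libraries (adjusted p = 1.84e-06). Ifit1 had 244 and 248 against 0 in 6 of the 8 and 32 and 64 in the others (adjusted p = 0.00167). Cmpk2 had 45 and 44 in the fibroblasts and 104 to 132 in the lines (log2 fold change 1.39 ± 0.11, adjusted p = 7.67e-09), and Rsad2 had 32 and 38 against 50 to 115 (1.16 ± 0.34, adjusted p = 0.00670). Without fibroblast replicate 1 the Rsad2 call was lost (adjusted p = 0.0728). With group means as samples, which leaves 1 fibroblast mean, some genes were no longer called, Ifit1 among them (log2 fold change -6.565). The share of all tested genes called with group means was not counted here either, so no count is given. Irf3, Ifih1, Adar and Ifit2 were not called in the main fit.

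Both IFITM genes were far higher in miNSC than in NSC. Ifitm3 stood at 16 and 4 in the passage 2 and 5 NSC libraries and at 170 to 2899 in the 20 miNSC libraries (log2 fold change 6.52 ± 0.27, adjusted p = 2.34e-11). Ifitm2 stood at 98 and 47 against 808 to 1822 (log2 fold change 4.30 ± 0.16, adjusted p = 9.04e-12). No library overlapped for either gene, and the fibroblasts were higher still.

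In the whole list, 14 of 38 genes were called lower than in NSC and 3 higher, against a background of 19.7% and 20.9%, and 21 were not called. The third gene called higher was Irf3, with 295 and 251 in NSC and 220 to 560 in miNSC (log2 fold change 0.43 ± 0.15, adjusted p = 0.0376), whose call was lost when either NSC library was left out. Ifit3, at 52 and 78 in NSC and 0 to 47 in miNSC, fell by 2.12 (SE 0.65, adjusted p = 0.0159). Parp14, at 112 and 86 in NSC and 0 to 99 in miNSC, fell by 1.90 (SE 0.67, adjusted p = 0.0332). Adar, which had not differed from fibroblasts, had 962 and 891 in NSC and 512 to 734 in miNSC (log2 fold change -0.60 ± 0.08, adjusted p = 1.73e-05). Stat2 was at 214 and 570 in the 2 NSC libraries, so that its call (-1.18 ± 0.23) rested on passage 5: without that library its log2 fold change was -0.47 (adjusted p = 0.0606). The calls for Ifit3 and Parp14 were lost when either NSC library was left out, with adjusted p from 0.0604 to 0.207. With group means as samples, 1 of 38 was called, Ifitm2. The 2 NSC libraries differed by more than 2-fold in 11 of the 42 genes.

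**Figure D3:**
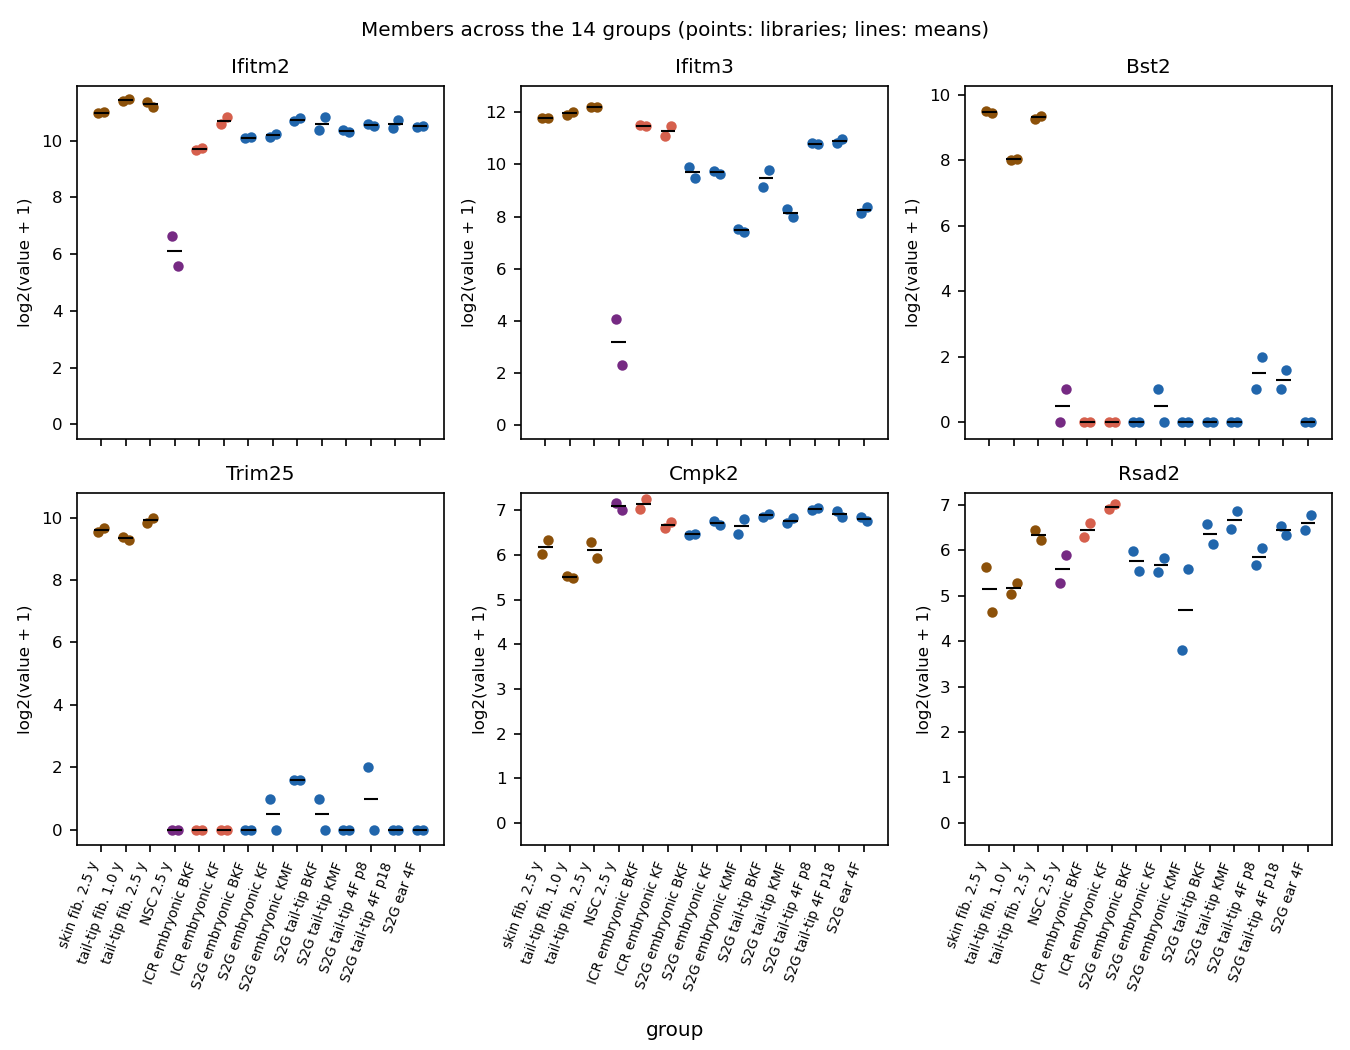
Values as log2(value + 1) of 6 genes in the 14 groups, with a point per library and a line at the group mean; fibroblasts are brown, NSC purple, ICR lines red and Sox2-GFP lines blue. The NSC points lie far below all others for Ifitm2 and Ifitm3, Bst2 and Trim25 are near 0 in every group but the fibroblasts, and Cmpk2 is lowest in fibroblasts.

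ICR lines held more RNA of several interferon response genes than Sox2-GFP lines made with the same cocktails from embryonic fibroblasts. Over the BKF and KF lines (4 libraries each side), 15 of 38 genes were called higher and 4 lower in ICR, against 19.3% and 19.1% of all tested genes. The median was 0.50 over the 38 and 0.00 over all tested. Trim5, at 166, 186, 199 and 201 in ICR, stood at 0, 94, 0 and 0 in Sox2-GFP (log2 fold change 5.92 ± 0.84, adjusted p = 4.79e-05). Usp18 stood at 72, 82, 74 and 80 in ICR and at 0, 0, 25 and 14 in Sox2-GFP (4.13 ± 0.80, adjusted p = 7.53e-04). Oasl2 stood at 37, 34, 26 and 42 against 0, 0, 7 and 10 (3.52 ± 0.71, adjusted p = 9.57e-04). In these 3 genes all ICR libraries lay above all Sox2-GFP libraries. In 10 of the 38 genes the libraries did not overlap, against 19.9% of all tested genes, and all 10 were called.

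Stat2, of the signalling complex, was among the genes called higher. It was at 269, 244, 295 and 308 in ICR and at 119, 86, 83 and 88 in Sox2-GFP (log2 fold change 1.57 ± 0.22, adjusted p = 4.51e-05). Isg15 was at 5, 8, 9 and 13 against 0, 1, 1 and 0 (2.72 ± 0.42, adjusted p = 1.07e-04), and Ifitm3 at 2191 to 2899 against 714 to 958 (1.69 ± 0.26, adjusted p = 8.63e-05). Parp12 went the other way in the fit (-3.10 ± 0.12, adjusted p = 1.28e-11): it was listed at 0 in both ICR KF libraries, while ICR BKF had 149 and 152 and the Sox2-GFP lines had 92 to 117. Fibroblast markers summed to 356 to 3012 in these ICR libraries and 251 to 610 in the Sox2-GFP ones, and their part was not tested. Strain and the single line per cocktail cannot be told apart: with each of the 4 group means as 1 sample, none of the 38 genes was called.

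Each of the 6 role classes had at least 1 gene called higher in ICR and a median above 0, but single genes went the other way. Irf1 (-1.50 ± 0.21) and Gbp2 (-0.83 ± 0.17) were lower in ICR, both through the Sox2-GFP KF line. Ifih1 was also lower, through ICR KF. Adar, Irf2, Trim21, Parp9 and Parp14 were not called. The further pathway lists had no common direction. Of 29 other interferon-induced genes, 4 were called higher and 5 lower in ICR, with a median of 0.02. Of 10 receptor and kinase genes 2 were higher and 3 lower, of 7 negative regulators 1 and 2, and of 9 sensing adaptors 2 and 1. The Sox2-GFP tail-tip and ear lines, which were outside this contrast, had Stat2 at 64 to 274 and Trim5 at 0 throughout.

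**Figure D4:**
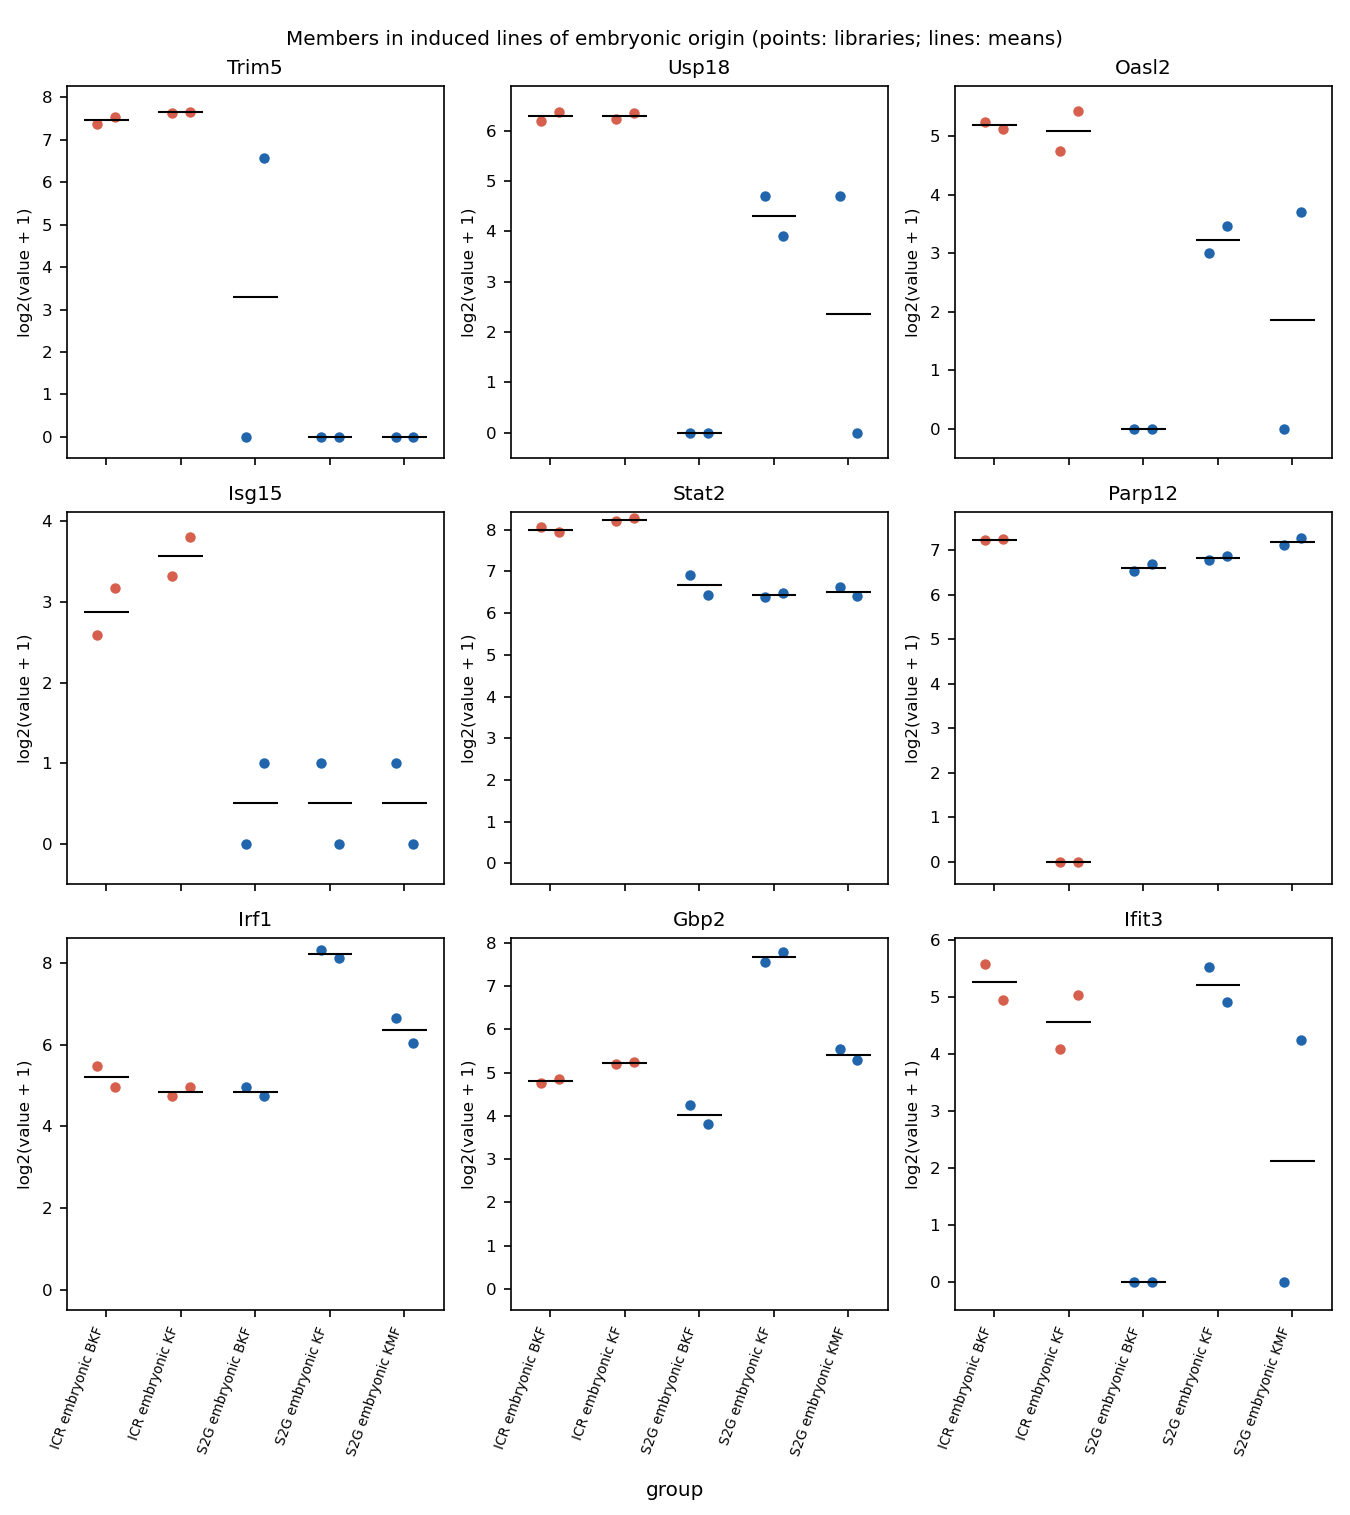
Values as log2(value + 1) of 9 genes in the 5 lines of embryonic origin, with a point per library and a line at the mean; ICR lines are red and Sox2-GFP lines blue. Trim5, Usp18, Oasl2, Isg15 and Stat2 are highest in both ICR lines, Parp12 is at 0 in ICR KF only, and Irf1 and Gbp2 are highest in Sox2-GFP KF.

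BKF and KF lines of embryonic origin were compared within each strain. In Sox2-GFP, 10 of 38 genes were called lower in BKF than in KF and 1 higher, against 18.5% and 19.2% of all tested genes. In either direction 28.95% of the 38 were called, no higher a share than the 6140 of all 16275 tested genes, but nearly all calls were lower. Gbp2 had 187 and 220 in KF and 18 and 13 in BKF (log2 fold change -3.64 ± 0.24, adjusted p = 3.07e-08). Irf1 had 318 and 276 against 30 and 26 (-3.36 ± 0.30, adjusted p = 5.18e-07). The KF values were the highest of any miNSC group for both genes, and Irf1 there exceeded even the fibroblasts.

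All 3 IFIT genes were also called lower in Sox2-GFP BKF, while Ifitm2 and Ifitm3 of the same class were not called. A 0 of Ifit1 or Ifit2 may be a failed estimate, as said above. Ifit3 had 45 and 29 in KF and was listed at 0 in both BKF libraries (adjusted p = 2.17e-04), Ifit1 had 68 and 62 against 0 and 0 (adjusted p = 0.0266), and Ifit2 had 178 and 197 against 0 and 38 (-4.91 ± 0.95, adjusted p = 7.16e-04). Usp18 had 25 and 14 against 0 and 0 (adjusted p = 0.00692). The Ifit1 call was lost without any 1 of the 4 libraries (adjusted p from 0.0916 to 0.0971), and that of Usp18 without KF replicate 1 (adjusted p = 0.0537). Without KF replicate 1 the count was 6 genes and without KF replicate 2 it was 7. Trim5, the 1 gene called higher, rested on replicate 2 of BKF (94) alone. Ddx58 had 166 and 191 in BKF against 288 and 258 (-0.61 ± 0.18, adjusted p = 0.0138). Astrocyte markers were lower in BKF too: they summed to 43280 and 46943 in KF and to 25865 and 29835 in BKF, and 5 of 6, among them Gfap and Aqp4, were called lower; none was at 0 in both libraries of a line, and their part was not tested.

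In ICR, 3 genes were called higher and 4 lower in BKF, against 6.69% and 6.42% of all tested genes. Parp12 was at 149 and 152 in BKF and listed at 0 in both KF libraries (adjusted p = 1.74e-14). Ifih1 had 90 and 78 against 37 and 0 (log2 fold change 3.78 ± 0.96, adjusted p = 0.0144). Ifi27, a mitochondrial and nuclear-membrane protein gene, had 128 and 136 against 445 and 670 (-2.04 ± 0.29, adjusted p = 1.12e-04). Rtp4, a Golgi chaperone gene, had 38 and 9 against 74 and 58 (-1.75 ± 0.55, adjusted p = 0.0465). Ddx58, with 186 and 174 against 272 and 286, was lower by about as much as in Sox2-GFP (-0.63 ± 0.18, adjusted p = 0.0294), a call lost without any 1 of these 4 libraries. Fibroblast markers summed to 481 and 356 in BKF and to 2855 and 3012 in KF, 5 of 8 were called lower, and their part was not tested. The count fell to 3 or 4 when any 1 of the 4 libraries was left out. Rtp4 was then no longer called without BKF replicate 2 or either KF library, nor Ifih1 without either BKF library.

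The test of the difference between the strains called 11 of the 38 genes. For 8 the change from KF to BKF was higher in ICR and for 3 lower, against 15.8% and 16.4% of all tested genes, so the share called was no higher than the background. Ddx58 did not pass this test (difference -0.02 ± 0.26, adjusted p = 0.994). Irf1 differed by 3.73 ± 0.43 (adjusted p = 7.00e-06) and Gbp2 by 3.22 ± 0.34 (adjusted p = 3.71e-06): in ICR they were at 44, 30 and 26, 28 in BKF and at 26, 30 and 36, 37 in KF. Parp12 and Ifit3 were the largest of the 11, each with a line listed at 0. Ifih1 differed by 4.77 ± 1.36 (adjusted p = 0.0131). When only these 4 groups were fitted, Ifih1 (adjusted p = 0.183), Ifit2 (0.208), Rtp4 (0.18) and Parp9 (0.0609) were not called.

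In Sox2-GFP embryonic cells, 7 of 38 genes were called lower and 3 higher in the KMF line than in the KF line. The background was 19.2% and 19.9% of all tested genes, so the share called was no higher than it. Cocktail and line cannot be told apart here. Gbp2 was at 46 and 38 in KMF (-2.25 ± 0.24, adjusted p = 2.69e-06) and Irf1 at 100 and 65 (-1.86 ± 0.30, adjusted p = 1.42e-04), both below KF and above BKF. Ifitm3 had 186 and 170 in KMF, the lowest of all miNSC lines, against 855 and 802 in KF (-2.21 ± 0.36, adjusted p = 1.58e-04). Ifit3 had 0 and 18 in KMF (-3.09 ± 0.88, adjusted p = 0.0103), a call that was lost without KMF replicate 1 (-0.97, adjusted p = 0.211) or KF replicate 1 (adjusted p = 0.0714). Without KF replicate 2 the count was 6. This contrast shares its KF libraries with the one for B. Astrocyte markers summed to 27716 and 29359 in KMF, 4 of 6 were called lower, and their part was not tested.

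Lines from tail-tip and embryonic Sox2-GFP cells, compared over BKF and KMF, differed in 10 genes called higher and 3 lower of 38 in tail-tip, against 15.8% and 17.2% of all tested genes. In either direction 34.21% of the 38 were called, near the share of 5377 among all 16275 tested genes, though most of the calls were higher. The median was 0.02 over the 38 and 0.01 over all tested. Ifit2 stood at 204, 215, 204 and 192 in the tail-tip lines and at 0, 38, 98 and 88 in the embryonic ones (log2 fold change 3.08 ± 0.67, adjusted p = 0.00212). Stat2 stood at 179, 124, 268 and 274 against 119, 86, 98 and 84 (1.06 ± 0.22, adjusted p = 0.00149). In these genes, as in Rsad2, Dtx3l, Gbp2 and Parp9, the libraries did not overlap. The share of all tested genes without overlap was not counted for this comparison, so the separation adds no support. Usp18 (3.85 ± 0.80, adjusted p = 0.00144) and Ifit3 (3.12 ± 0.62, adjusted p = 0.001) overlapped, and Parp12 was lower (-1.29 ± 0.12, adjusted p = 6.75e-07) through the tail-tip KMF line. With group means as samples none of the 38 was called.

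Within tail-tip lines, KMF differed from BKF in 1 gene called higher and 2 lower of 38, a share no higher than the background of 6.22% and 6.75% of all tested genes. Parp12 had 17 and 22 in KMF and 118 and 116 in BKF (-2.54 ± 0.17, adjusted p = 5.86e-08). Ifitm3 had 309 and 256 against 564 and 889 (-1.33 ± 0.36, adjusted p = 0.0243). Parp14 had 30 and 48 against 28 and 0 (2.85 ± 0.90, adjusted p = 0.0485). Only Parp12 was called when BKF replicate 2 or either KMF library was left out, and 5 genes were without BKF replicate 1.

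With M added to BKF, the tail-tip 4F line at passage 8 had 8 genes lower and 3 higher of 38, against 12.9% and 13.1% of all tested genes. Ifi44, an interferon-induced protein gene of the cytoplasm, was listed at 0 in both 4F libraries and had 37 and 43 in BKF (adjusted p = 0.00230). Ifitm3 had 1808 and 1764 in 4F against 564 and 889 (1.33 ± 0.36, adjusted p = 0.0126). Parp14 (2.66 ± 0.90, adjusted p = 0.0398) had 32 and 34 against 28 and 0, and Bst2 (adjusted p = 0.00842) had 1 and 3 against 0 and 0. With the same line at passage 18 in place of passage 8 the count was 6, all higher, and Ifi44 (0.53), Stat2 (0.42), Ifi27 (0.35) and Trim21 (0.27) turned positive. Astrocyte markers summed to 19299 and 21499 at passage 8 and to 30836 and 31177 in BKF, 5 of 6 were called lower, and their part was not tested. Leaving out any 1 of these 4 libraries left 6 or 7 genes called. Parp14 was lost without BKF replicate 2 (adjusted p = 0.671) or either 4F library, Bst2 without 4F replicate 2 (adjusted p = 0.114), and Ifitm3 without 4F replicate 1 or BKF replicate 1.

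The same 4F line at passage 18 had higher values than at passage 8 for all 10 of the 38 genes that were called, with none lower, against 17.5% of all tested genes higher and 17.6% lower. In either direction 26.32% of the 38 were called, no higher a share than the 5716 of all 16275 tested genes, but every call was higher. The median was 0.24 over the 38 and 0.03 over all tested. Ifi44 went from 0 and 0 to 70 and 48 (adjusted p = 7.76e-04). Stat2 went from 64 and 80 to 204 and 195 (log2 fold change 1.47 ± 0.31, adjusted p = 0.00180). Usp18 went from 0 and 12 to 42 and 44 (3.61 ± 1.14, adjusted p = 0.0211), and Oasl2 from 0 and 3 to 14 and 17 (3.04 ± 1.00, adjusted p = 0.0263). In each of the 10 genes both later libraries lay above both earlier ones. That adds no support to the calls, because genes called between 2 libraries and 2 mostly separate in this way.

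The other genes that rose with passage were Ifi27 (1.43 ± 0.29), Gbp2 (1.07 ± 0.24), Ddx58 (0.91 ± 0.18), Trim21 (0.84 ± 0.18), Parp9 (0.71 ± 0.15) and Eif2ak2 (0.45 ± 0.14). The calls for Usp18 and Oasl2 were lost without passage 8 replicate 1 or either passage 18 library, and the count was 6 without passage 18 replicate 2. Trim5, Oas1a and Oas2 stayed listed at 0 at both passages, and Ifitm3 had 1764 to 2024 throughout. Of the 10 receptor and kinase genes, 6 were called higher at passage 18 and none lower, against 17.5% and 17.6% of all tested genes. The other pathway lists moved less: 4 of 29 other interferon-induced genes were higher and 1 lower, and 2 of 9 sensing adaptors higher and 1 lower. Of 7 negative regulators, 3 were higher and none lower. Astrocyte markers rose as well, from sums of 19299 and 21499 to 26452 and 31373, with Gfap at 20 and 12 against 628 and 2547 and 4 of 6 genes called higher. Their part was not tested.

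The ear-derived 4F line differed from the tail-tip 4F line at passage 8 in 9 genes, 3 higher and 6 lower, against 13.3% and 13.8% of all tested genes. The share called, 23.68% of the 38, was no higher than the background. The passage of the ear line is not given, so origin and passage cannot be told apart. Ifitm3 had 282 and 332 in the ear line against 1808 and 1764 (-2.54 ± 0.36, adjusted p = 8.21e-05). Ifi27 had 228 and 247 against 70 and 52 (1.96 ± 0.29, adjusted p = 1.02e-04). Ifi44 had 62 and 62 against 0 and 0 (adjusted p = 9.16e-04), and Parp14 was listed at 0 in both ear libraries against 32 and 34 (adjusted p = 5.59e-04). In the ear line 11 of the 42 genes were listed at 0 in both libraries, the most of any group, among them Isg15, Bst2, Ifit1 and 4 OAS genes.

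**Figure D5:**
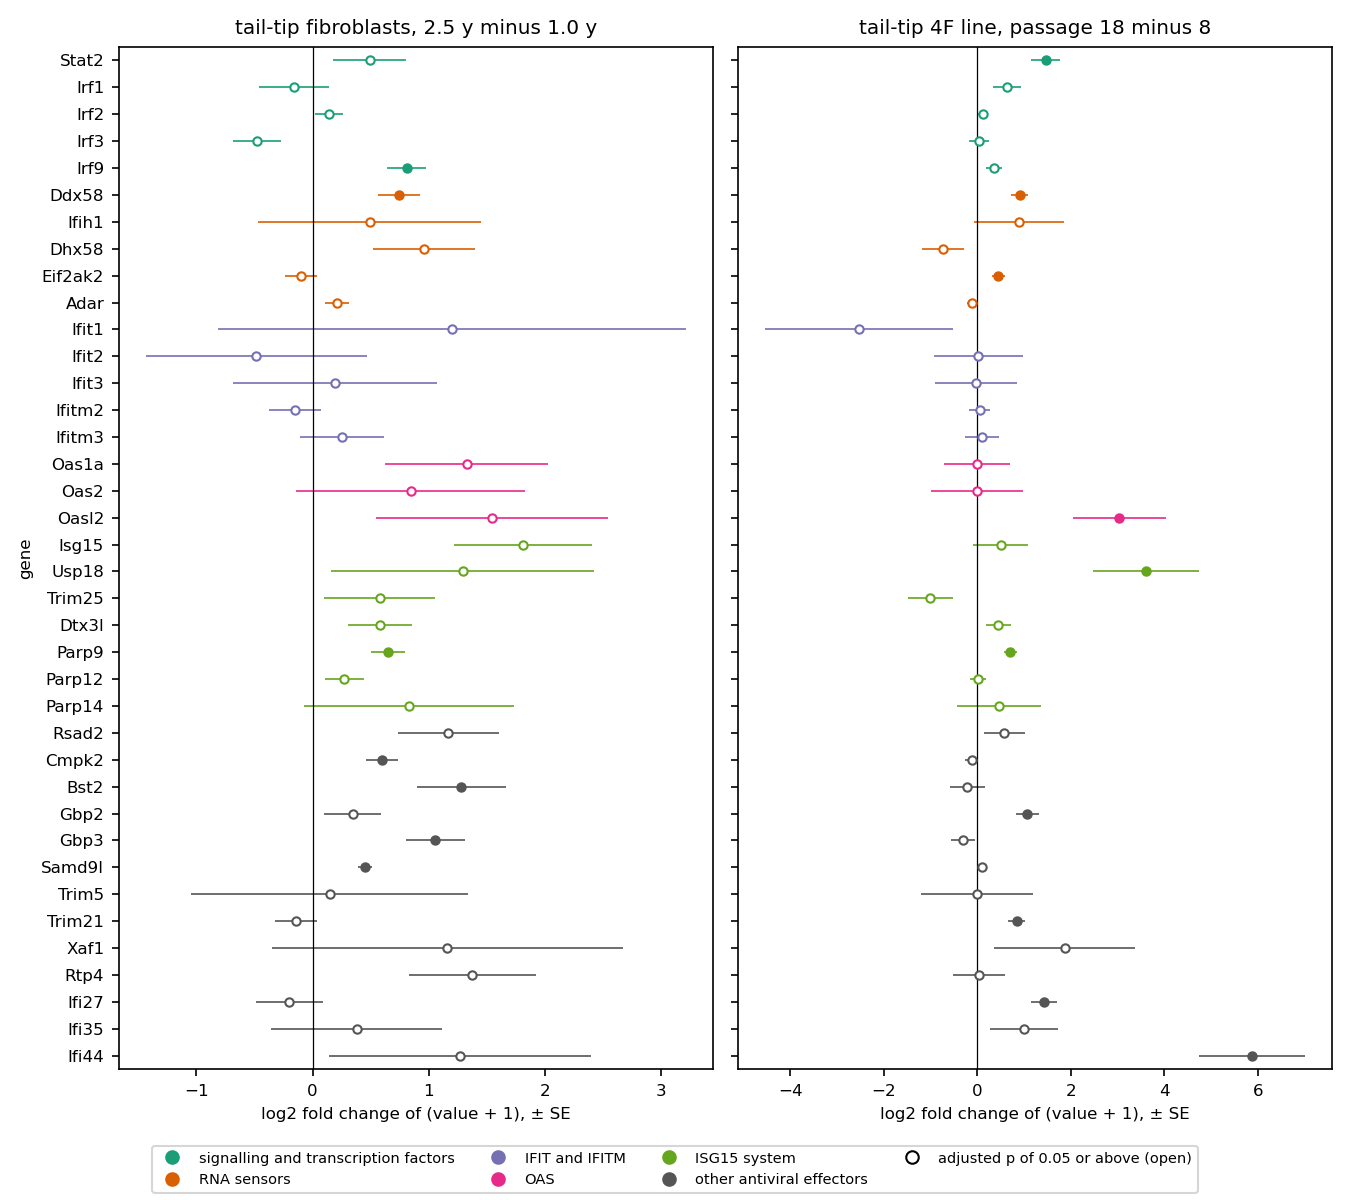
Log2 fold changes with standard errors of the 38 tested genes, coloured by role, for tail-tip fibroblasts of 2.5 minus 1.0 years (left) and the tail-tip 4F line at passage 18 minus 8 (right), where filled points passed adjusted p under 0.05. All filled points lie above 0 in both panels, from 0.45 to 1.28 on the left and from 0.45 to 5.88 on the right, the last for Ifi44, which was at 0 at passage 8.

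Among fibroblasts, those of 2.5-year tail tips had more RNA of several interferon response genes than those of 1.0 years. Of 38 genes 7 were called higher and none lower, against 5.63% and 5.41% of all tested genes. The median was 0.58 over the 38 and 0.01 over all tested. In 36 of the 38 genes the 2 older libraries did not overlap the 2 younger ones, in either direction, against 62.4% of all tested genes. Bst2 had 256 and 264 at 1.0 years and 617 and 650 at 2.5 years (log2 fold change 1.28 ± 0.38, adjusted p = 0.0413). Gbp3 had 132 and 160 against 290 and 318 (1.06 ± 0.26, adjusted p = 0.0137), Irf9 had 268 and 309 against 536 and 477 (0.81 ± 0.17, adjusted p = 0.00567), and Ddx58 had 1042 and 1144 against 1855 and 1800 (0.74 ± 0.18, adjusted p = 0.0142). Parp9 (0.65 ± 0.15), Cmpk2 (0.60 ± 0.14) and Samd9l (0.45 ± 0.06) rose too.

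Several genes with wide gaps between the ages did not pass. Isg15 had 46 and 52 against 241 and 126, Rsad2 32 and 38 against 86 and 74, and Rtp4 104 and 106 against 252 and 298. Irf7, below the mean needed for a test, had 22 and 21 against 62 and 54. Irf1, Irf3, Ifit2, Ifitm2, Eif2ak2, Ifi27 and Trim21 had a negative difference and were not called. The count depended on single libraries: it was 2 without 1.0-year replicate 1, 3 without 1.0-year replicate 2 or 2.5-year replicate 2, and 4 without 2.5-year replicate 1. Bst2 and Ddx58 were lost without any 1 of these 4, Irf9 without 1.0-year replicate 1 (adjusted p = 0.0638), and Gbp3 without 1.0-year replicate 1 or 2.5-year replicate 2. Cmpk2 was lost without either 1.0-year library or 2.5-year replicate 1, and Parp9 without replicate 2 of either age, so of the 7 Samd9l alone kept its call with each of the 4 left out. The count was 12 with a pseudocount of 10, and 15 with only these groups in the fit. Each age is 1 group of 2 libraries, so donor and age cannot be told apart.

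Macrophage and leukocyte markers moved with age in the same samples. The 9 genes summed to 574 and 647 at 1.0 years and to 4452 and 4810 at 2.5 years, and none was at 0 in both libraries of a fibroblast group. Of the 5 tested, Adgre1 (49 and 62 against 404 and 401), Cd68 and Csf1r were called higher, and C1qa had 3 and 3 against 72 and 45. Skin fibroblasts lay between, at 1243 and 1314. Their part in the rise of interferon response genes was not tested.

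At 2.5 years, skin fibroblasts had lower values than tail-tip fibroblasts for 8 genes and higher for 1 of the 38, against 14.5% and 12.0% of all tested genes. In either direction 23.68% of the 38 were called, no higher a share than the 4322 of all 16275 tested genes, but nearly all calls were lower. The median was -0.35 over the 38 and 0.00 over all tested. Gbp3 had 106 and 107 in skin against 290 and 318 (-1.50 ± 0.26, adjusted p = 3.23e-04), and Gbp2 had 227 and 194 against 543 and 534 (-1.35 ± 0.24, adjusted p = 5.27e-04). Eif2ak2 had 538 and 505 against 989 and 944 (-0.89 ± 0.14, adjusted p = 1.50e-04), and Irf9 had 309 and 288 against 536 and 477 (-0.76 ± 0.17, adjusted p = 0.00307). Irf2 was the gene called higher, with 642 and 648 against 395 and 400 (0.70 ± 0.12). The OAS genes, not called, had the opposite order for Oas1a, at 158 and 190 in skin and 64 and 54 in tail tip. This comparison shares the 2.5-year tail-tip libraries with that of age.

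Replicates of a group may come from 1 colony or culture, so the p-values reflect no more than the variation among these libraries, which may be technical. All fold changes are on the log2(value + 1) scale, which understates changes of low genes, and the 2 libraries of a group borrow their spread from all 14 groups in the fit.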

How the data were processed

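Messenger RNA of 28 mouse libraries was sequenced after oligo(dT) enrichment, per the labels' protocols. The authors deposited 1 table of whole-number scores with nearly equal totals. RSEM, Bowtie2 2.0 and mm10 are named without a role, per the submitters' processing notes, and the normalisation is not given in the sources used here. For that reason the values were treated as scores and not as counts, and depth and its precision are unknown. All 17295 identifiers were found in GENCODE M21 (GRCm38), the source of gene coordinates.

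Values were transformed to log2(value + 1). The 16275 genes averaging 10 or more across the libraries were fitted in limma 3.58.1 (R 4.3.3) with 1 term per group, a variance trend and groups weighted equally in contrasts. Calls used a Benjamini-Hochberg adjusted p under 0.05, the adjustment running over the full set of fitted genes. The rule for named genes was every listed gene with a row, by role, with the 4 largest called changes per comparison in full, and at most 4 genes of each further pathway list. The listed genes, the pathway and marker lists and the tests were chosen with earlier results of these data known. Replicate numbers did not pair the groups (correlations of deviations from -0.05 to 0.07 over 78 pairs of groups, none over 0.1). The alternatives were other pseudocounts, filters, scalings and variance settings, a replicate block, fits of the compared groups alone, group means as samples and leaving out each library. After the data were seen, the Sox2-GFP miNSC groups alone were added as an alternative, as were counts over genes with a miNSC mean of at least 10, and so was the count of genes with no value between 0 and 20. The fit was tested on simulated data. Python 3.11.15 with pandas 2.3.3, numpy 2.4.6 and matplotlib 3.10.9 was used, with statmod 1.5.0 for blocked fits. Promoter windows came from RefSeq on GRCm38.p6.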

Additional observations from a re-analysis of the deposited data

Results flagged for a closer look

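In 11 of the 38 tested interferon response genes the change from KF to BKF differed between the ICR and Sox2-GFP embryonic lines. This was a test of that difference itself, with limma's adjusted p under 0.05. The change was higher in ICR for 8 genes and lower for 3, against 15.8% and 16.4% of all tested genes. The share called was thus no higher than the background. Expressed as the ICR change minus the Sox2-GFP change on the log2 scale, the values were 7.47 for Parp12, 5.92 for Ifit3, 4.77 for Ifih1, 4.48 for Ifit2, 3.73 for Irf1, 3.22 for Gbp2, 1.01 for Parp9 and 0.72 for Cmpk2. They were -2.13 for Rtp4, -1.73 for Ifi27 and -0.92 for Ifitm2. In Parp12 and Ifit3 a line was listed at 0 in both libraries, so the size of the difference depends on the pseudocount. Ifih1 had 37 and 0 in ICR KF, and Ifit2 had 0 and 38 in Sox2-GFP BKF. Such a 0 may be a failed estimate, so the sizes for these genes are uncertain too. Rtp4 and Ifitm2 each lost their call without 1 of several libraries, with adjusted p from 0.0636 to 0.252. Each line and cocktail is 1 group of 2 libraries, and strain and line cannot be told apart.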

How the results depend on the processing

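Most alternatives kept the calls. Of 4232 alternative values for 208 called gene results, 3872 kept direction and call, 355 kept the direction but lost the call and 5 reversed; of 248 alternative counts, 215 stayed within 1.5 times the reported one. Irf3 in miNSC against fibroblasts became -0.018 with 1.0-year tail-tip fibroblasts alone. With passage 18 in place of passage 8 of the 4F line against tail-tip BKF, Trim21 became 0.27, Ifi44 0.53, Ifi27 0.35 and Stat2 0.42, and the count became 6, all higher. With group means as samples the counts became 0 for ICR against Sox2-GFP and 0 for tail-tip against embryonic lines. Fewer samples enter these fits, and in those against NSC or 1.0-year fibroblasts 1 side holds 1 mean. With only the compared groups fitted, they became 3 for B in ICR, 1 for M in place of B, 1 for 4F at passage 8 against BKF, 2 for passage, 5 for ear against tail tip, 15 for age of fibroblasts and 18 for skin against tail tip, and with a pseudocount of 10 the age count became 12. Leaving out 1 library gave counts of 3 to 4 for B in ICR, 6 to 9 for B in Sox2-GFP, 6 to 8 for M added to KF, 1 to 5 for M in place of B, 6 to 7 for 4F against BKF, 6 to 10 for passage and 2 to 4 for age. No call was lost with a replicate block, whose numbers do not pair the samples: the counts were then 37 for miNSC against fibroblasts, 20 for ICR against Sox2-GFP, 10 for passage and 8 for age. The causes were not tested. Depth is unknown, so no precision from depth can be stated.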
